A study of Mus musculus with 8 samples.

Results

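The NK cells of blood and grafts were 475 cells among 47541 that passed the cell filter in 8 Microwell-seq libraries of mouse heart, liver and kidney allografts. A cell passed with at least 500 unique molecular identifiers (UMIs, each standing for 1 captured transcript) and at most 10% of them from mitochondrial genes. It was called an NK cell when Ncr1, Klrb1c, Klra4, Klra7, Klra8 and Klre1 summed to at least 3 UMIs, Cd3d, Cd3e and Cd3g to at most 1, Cd8a and Cd8b1 to at most 1, and Csf1r and Cd79a were at 0. The cells were thus chosen by measured UMIs of these genes, whose levels are described here without any test. Of the 475 NK cells, 334 came from blood and 141 from grafts. The study asked how immune cells differ between liver grafts, which are accepted in this model, and heart and kidney grafts, which are rejected. BALB/c organs were placed in C57BL/6 recipients, both 8 weeks old, and the recipients were killed at day 7 without any immunosuppressive drug. The labels give the strain of every sample as BALB/c, that of the donors, and the sex as male. Each organ gave 1 blood library (PBMC) and 1 library of graft-infiltrating lymphocytes taken on a density gradient (TIL), and liver and kidney gave a further library of the dissociated organ (PC). Per the study's methods 2 recipients per organ gave the material, and which of them stand behind a library is not stated, so no spread between animals could be had and no test was made. All intervals below are exact 95% intervals that cover counting error only.

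NK cells are cytotoxic lymphocytes that kill without a rearranged antigen receptor. They release granzymes and perforin from granules, and they are held in check or set off by receptors that read MHC class I molecules on the target. In the mouse these are the Ly49 receptors, encoded by the Klra genes on chromosome 6, and the Cd94-NKG2 pairs, encoded by Klrd1 and the Klrc genes. A graft from another strain lacks the MHC molecules of the recipient, which makes NK cells responders to allografts by the rule known as missing self.

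Organ markers went against the labels of the heart and liver TIL libraries. Summed over all barcodes, 4 hepatocyte genes reached 249 UMIs per 1000000 (counts of a gene scaled to the total, CPM) in the library labelled heart TIL and 0 in the library labelled liver TIL, against 160 in liver PC. The 4 cardiomyocyte genes reached 73.7 CPM in the library labelled liver TIL and 0.645 in the library labelled heart TIL. These libraries are called heart-labelled and liver-labelled TIL here, and the main results were also computed with their labels exchanged. The kidney TIL and kidney PC libraries carried proximal tubule genes at 956 and 987 CPM. Every library held 10000 barcodes with 3418722 to 19171264 UMIs, and any pair of libraries shared 123 to 617 barcode sequences. Of the NK cells, 55 had a barcode that also occurred in another library, and no barcode was an NK cell in more than 1 library.

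The identity of the cells was read from marker genes that had not been used to choose them. Gzma, which encodes granzyme A, stood at 4.65 to 12 times its level in all other passing cells of the same library across the 6 libraries with at least 20 NK cells. Prf1, which encodes perforin, stood at 3.08 to 15.6 times, the NKG2D receptor gene Klrk1 at 3.53 to 15.6 times, Klrd1 at 2.5 to 12.2 times, and Klri2, whose product pairs with that of Klre1, at 7.29 to 44.1 times. The IL-15 and IL-2 receptor subunit gene Il2rb and the transcription factor gene Tbx21 were also higher in NK cells of every one of these libraries, at 2.17 to 14.7 and 1.98 to 13.3 times. Eomes, a transcription factor that marks conventional NK cells, was higher in 5 libraries and had no UMI in the liver-labelled TIL, where 3 UMIs would have made 89.3 CPM. The adaptor genes Tyrobp and Fcer1g did not set the cells apart, with ratios of 0.875 to 1.71 and 0.799 to 1.92. Myeloid cells also carry both, and their part in these ratios was not tested. Klrc2 had no UMI in the 30 NK cells of the heart-labelled TIL and stood at 5.58 to 34.9 times elsewhere. Of the 14 listed genes of the related ILC1 lineage, 5 to 9 were at 0 per library and the others were found. Itga1 and Cd200r1 were at 0 in all 6 libraries. The 14 genes summed to 183 to 536 CPM in NK cells and to 661 to 854 CPM in the other cells. Whether the choice of cells by receptor genes left out ILC1 was not tested.

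**Figure D1:**
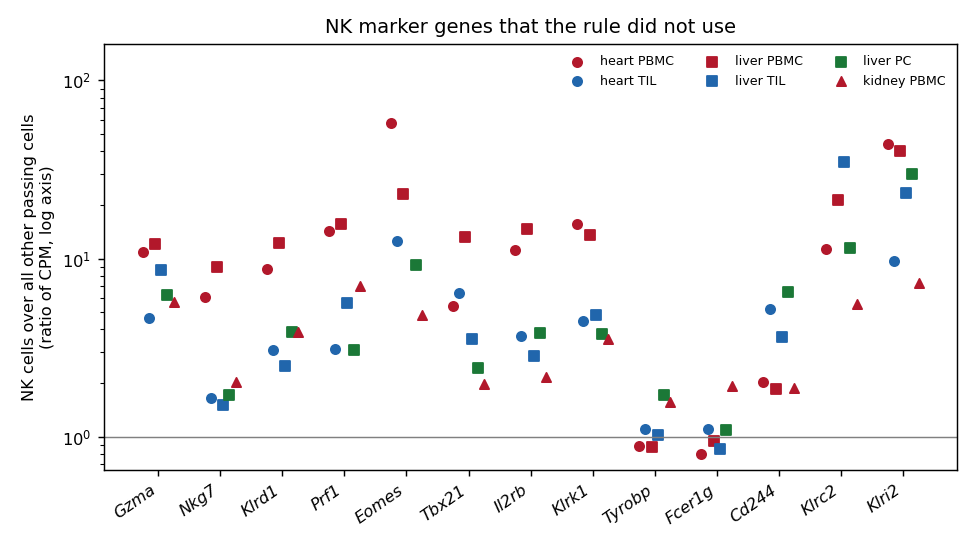
Ratio of the CPM of 13 NK marker genes in NK cells to that in all other passing cells of the same library (log axis), 1 point for each of the 6 libraries with at least 20 NK cells; ratios of 0 (Eomes in the liver-labelled TIL, Klrc2 in the heart-labelled TIL) cannot be drawn. Most genes lie above the grey line of equal levels, and Tyrobp and Fcer1g lie on either side of it.

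Transcripts of other cells were present in the NK cells, and they set how far the comparisons below can be read. The ratio of macrophage and neutrophil genes in NK cells to all other cells was taken over those of 8 genes with at least 50 CPM in the other cells, which were 6, 6 and 5 genes in heart, liver and kidney blood and 8 in each graft library. Its median was 0.448 in heart PBMC, 0.469 in liver PBMC, 0.408 in kidney PBMC, 0.471 in the heart-labelled TIL, 0.414 in the liver-labelled TIL and 0.276 in liver PC. The neutrophil gene S100a8 made 46200 CPM of heart blood NK cells against 101892 in the other cells, and 2061 against 4740 in the heart-labelled TIL. The T cell receptor gene Trac stood at 15.0, 19.6 and 58.4 CPM in NK cells of heart, liver and kidney blood. It stood at 453, 298 and 97.3 CPM in those of the heart-labelled TIL, the liver-labelled TIL and liver PC, below the 816, 557 and 755 CPM of the other cells there. Trbc2 was also below them, at 1319, 685 and 617 against 1781, 1152 and 1877 CPM. Trbc1 was above them in both TIL libraries, at 1154 against 857 and 774 against 580 CPM. It was also above the other cells in heart and liver blood, at 647 against 211 and 412 against 146 CPM. In kidney blood it was below them, at 840 against 999 CPM. In liver PC Trbc1 was below, at 811 against 864 CPM. Of the NK cells of these graft libraries, 19 of 30, 16 of 32 and 36 of 78 had no Cd3 or Cd8 UMI. In heart, liver and kidney blood 50 of 65, 101 of 121 and 109 of 148 had none. The 4 neutrophil genes summed to 86851, 51614 and 22619 CPM in blood NK cells and to 3009, 2829 and 5451 CPM in graft NK cells. The 5 macrophage genes had no such order, at 3850.0, 8409 and 1117 CPM against 8697, 6878 and 3066 CPM. The level in the other cells is therefore given beside the NK level of the main genes.

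The 6 receptor genes that chose the cells are described without a comparison. Ncr1, the gene of the activating receptor NKp46, lies at chr7:4337724-4345164 on the plus strand of GRCm38. Klra4, Klra7 and Klra8 lie on the minus strand of chromosome 6 between 130043731 and 130233322. Klra8, the gene of the activating receptor Ly49H, stood at 1639 CPM in heart, 2355 in liver and 1380 in kidney blood, and at 1030.5 in the heart-labelled TIL, 1399.5 in the liver-labelled TIL and 730.1 in liver PC. Klra8 and Klra4, the gene of the activating receptor Ly49D, belong to the Ly49 haplotype of C57BL/6, the recipient strain, and are lacking in that of BALB/c. Klra8 gave 27.9%, 32.2% and 19.9% of the UMIs of the 6 receptor genes in heart, liver and kidney blood, and 20.2%, 28.5% and 15.6% in the heart-labelled TIL, the liver-labelled TIL and liver PC. Reads of these genes can fall on near-identical copies. Of the 50-base windows in the last 500 bases of the longest transcript, 13.1% of those of Klra8 also occur in Klra9, 27.5% of those of Klra7 in the pseudogene Klra13-ps, and 4.66% of those of Klra4 in Klra1.

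The threshold fell among cells with few receptor UMIs. In heart, liver and kidney blood, 16, 27 and 29 NK cells had exactly 3 receptor UMIs, and 29, 42 and 35 cells with 2 UMIs met all other conditions and stayed outside. In the heart-labelled TIL 18 of 30 NK cells were at 3 UMIs and 38 cells lay just outside. In the liver-labelled TIL these numbers were 7 and 18, and in liver PC 11 and 14. Median depth was 867, 720 and 779.5 UMIs per NK cell in heart, liver and kidney blood, 739 and 779 in the heart-labelled and liver-labelled TIL, and 1380.5 in liver PC. The heart-labelled TIL was thus the library whose NK cells lay closest to the threshold.

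NK cells called by the rule took a larger share of blood than of graft libraries in each organ. The rule counts Klra4 and Klra8, which the donor strain BALB/c lacks, so NK cells of the donor could be missed in grafts. Whether this lowered the graft shares was not tested. In heart, 65 of 7772 blood cells were NK cells (0.836%, 0.646 to 1.06%) and 30 of 9668 in the heart-labelled TIL (0.310%, 0.209 to 0.443%), which is 2.70-fold more in blood (1.72 to 4.30). In liver, 121 of 6822 blood cells were NK cells (1.77%, 1.47 to 2.12%), against 32 of 9337 in the liver-labelled TIL (0.343%, 0.235 to 0.483%) and 78 of 10000 in liver PC (0.780%, 0.617 to 0.973%). Blood was 5.18-fold above the liver-labelled TIL (3.48 to 7.90) and 2.27-fold above liver PC (1.70 to 3.06). With the 2 TIL labels exchanged, the log2 ratio of graft over blood was -1.29 for heart and -2.52 for liver, in place of -1.43 and -2.37. Over all UMIs of all barcodes the receptor genes were 0.966 times as high in heart blood as in the heart-labelled TIL, so that the heart difference was gone, and 2.74 and 1.95 times as high in liver blood as in the liver-labelled TIL and liver PC.

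Kidney stood at both ends of the range. In kidney blood 148 of 1143 passing cells were NK cells (12.9%, 11.1 to 15.0%), the highest share of the 8 libraries. Only 1 of 2004 cells of kidney TIL was one (0.0499%, 0.00126 to 0.278%), a 259-fold difference with an interval of 45.9 to 10317.5. Over all UMIs of all barcodes, with no choice of cells, the receptor genes were 15.4-fold higher in kidney blood than in kidney TIL. None of 795 cells of kidney PC was one, which by a limit of 3 cells allows a share of up to 0.377%, so that the share in blood was at least 34.3-fold higher. The upper end of the exact interval was 0.463%. Over all UMIs of all barcodes the receptor genes were 16.8-fold higher in kidney blood than in kidney PC. Kidney blood was also the blood library with the fewest passing cells, 1143 of its 10000 barcodes against 7772 and 6822 in the other blood libraries. Counted against T cells (at least 2 Cd3 UMIs and no receptor UMI), there were 51.9 NK cells per 100 T cells in kidney blood, 55.3 in liver blood and 13.4 in heart blood. The same count was 0.785 in the heart-labelled TIL, 1.20 in the liver-labelled TIL, 1.85 in liver PC and 0.116 in kidney TIL. The high share of NK cells in kidney blood thus went with few other cells, and liver and kidney blood held like numbers of NK cells per T cell.

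The limits on other lineages decided part of the difference in shares. With at least 3 receptor UMIs and no limit on Cd3, Cd8, Csf1r or Cd79a, the share was 1.0% in heart PBMC and 0.941% in the heart-labelled TIL, and 1.98% in liver PBMC against 0.536% in the liver-labelled TIL and 1.96% in liver PC. The difference in heart and that between liver blood and liver PC were then near 0, with log2 ratios of -0.09 and -0.01, and the liver-labelled TIL stayed below blood. Cd3 or Cd8 UMIs left out 53 cells of the heart-labelled TIL, 15 of the liver-labelled TIL and 104 of liver PC, against 8, 3 and 11 in heart, liver and kidney blood. The cells left out by Cd3 or Cd8 UMIs carried Gzma at 12353, 3396 and 8568 CPM and Trac at 631, 1415 and 883 CPM in these 3 graft libraries. The other cells of these libraries carried the Cd3 genes at 2269, 1643 and 1950 CPM, against 520, 291 and 1626 in heart, liver and kidney blood. T cells that express NK receptors, NK cells with free T cell transcripts and pairs of cells in a well cannot be told apart among them. Kidney TIL and kidney PC held no further such cell.

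**Figure D2:**
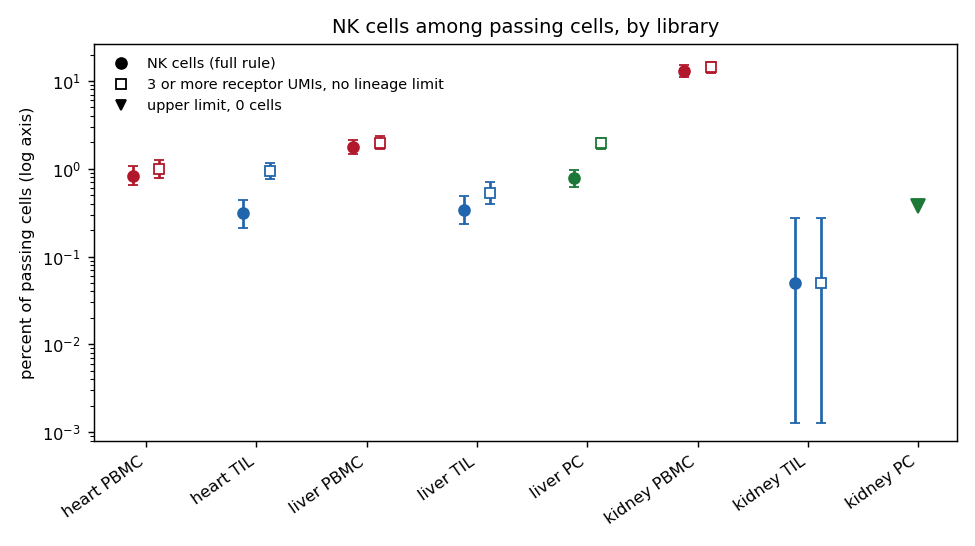
Share of passing cells that were NK cells in each of the 8 libraries (log axis), by the full rule (filled circles) and without the lineage limits (open squares), with exact 95% binomial intervals; the triangle is the upper limit for kidney PC, which held 0 NK cells. Kidney blood is highest at 12.9%, and in the heart-labelled TIL and liver PC the open squares lie well above the circles.

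Gene levels were compared between graft and blood NK cells of an organ by summing the UMIs of all NK cells in a library. A gene entered with at least 20 UMIs over both sums, 0.5 UMI was added to each, and it was counted as higher or lower from a 2-fold ratio on. In the heart-labelled TIL 90 of 752 genes were higher (12%) and 94 lower (12.5%) than in heart blood. In the liver-labelled TIL 127 of 1051 were higher (12.1%) and 134 lower (12.7%) than in liver blood. In liver PC 182 of 1743 were higher (10.4%) and 143 lower (8.2%). Kidney TIL and PC held too few NK cells for this comparison. Of all measured genes, 8.38%, 8.94% and 8.15% were higher and 8.78%, 8.47% and 7.06% lower with an interval that left out equal levels. Counting only genes whose NK level in the higher library reached that of the other cells, 8.11%, 9.61% and 8.26% were higher and 4.39%, 5.23% and 1.84% lower. The liver-labelled TIL and liver PC share the same blood library.

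The cytotoxic genes split, with granzyme B higher in grafts and granzyme A and perforin within 2-fold of their blood levels. Gzmb stood at 1805, 1639 and 1819 CPM in NK cells of heart, liver and kidney blood. It stood at 3833, 3871 and 3748 CPM in those of the heart-labelled TIL, the liver-labelled TIL and liver PC. The 3 graft libraries lay within a narrow band above the 3 blood libraries, and the lowest graft value was 2.06 times the highest blood value. In the liver-labelled TIL 73 of the 130 Gzmb UMIs came from 3 of the 32 NK cells. At 500 UMIs per cell 17 of these 32 cells had no Gzmb UMI. Of all genes with at least 100 UMIs over the NK cells, 7.84% lay above and 6.35% below every blood library in the 3 grafts. The log2 ratios over blood of the same organ were 1.09 (0.68 to 1.49), 1.24 (0.90 to 1.58) and 1.19 (0.94 to 1.46), and 1.10 and 1.23 for heart and liver with the 2 TIL labels exchanged. The other cells carried Gzmb at 537, 228 and 1026 CPM in the 3 blood libraries and at 3329, 1724 and 3438 CPM in the 3 graft libraries. T cells, as defined above, carried it at 2514, 1861 and 1333 CPM in blood and at 4611, 2795 and 5030 CPM in the grafts. With the level of the other cells subtracted in proportion to the macrophage and neutrophil genes, the 3 log2 ratios were 0.55, 0.89 and 0.48 and none reached 2-fold. At 500 UMIs per cell, Gzmb was found in 70.0% of NK cells against 55.8% of cells with neutrophil genes in the heart-labelled TIL, in 46.9% against 33.8% in the liver-labelled TIL and in 80.8% against 48.7% in liver PC. Median depth before thinning was 739 against 709, 779 against 684 and 1380.5 against 1273 UMIs. Cells with neutrophil genes had at least 10 neutrophil gene UMIs of 500. They numbered 523, 455 and 1107 in these 3 grafts. Among the 7772, 6822 and 1143 passing cells of heart, liver and kidney blood they numbered 7683, 6331 and 578. In heart, liver and kidney blood the shares were 49.2% against 14.7%, 42.1% against 7.20% and 45.9% against 19.6%. Unthinned, the NK shares were 86.7%, 59.4% and 93.6% in the grafts and 69.2%, 55.4% and 66.9% in blood.

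Gzma was the most abundant granule gene of the NK cells. It stood at 11369.6, 11019 and 18573 CPM in heart, liver and kidney blood, and at 14179.7, 6610.5 and 13839 CPM in the heart-labelled TIL, the liver-labelled TIL and liver PC. Blood and graft ranges overlapped, with kidney blood highest and the liver-labelled TIL lowest. The log2 ratios over blood were 0.32 (0.13 to 0.50), -0.74 (-0.95 to -0.53) and 0.33 (0.22 to 0.44). With the TIL labels exchanged both TIL directions turned, to -0.78 in heart and 0.36 in liver. The other cells carried Gzma at 1047, 915 and 3249 CPM in blood and at 3049.7, 771 and 2232 CPM in the grafts. At 500 UMIs per cell the median NK cell had 5 Gzma UMIs in heart and liver blood, 9 in kidney blood, 5.5 in the heart-labelled TIL, 2 in the liver-labelled TIL and 6 in liver PC. Prf1 stood at 541, 402 and 708 CPM in blood and at 412, 655 and 600.3 CPM in the 3 grafts, again with overlapping ranges, and each of its ratios was under 2-fold. In the other cells it stood at 25.8 to 101 CPM in blood and 117 to 195 CPM in the grafts. Of the 24 listed granule genes, 9, 11 and 12 were measured well enough in the 3 comparisons. Gzmb was higher in each, the granzyme-activating protease gene Ctsc was higher in the heart-labelled TIL, and none was lower. Over all genes 12%, 12.1% and 10.4% were higher and 12.5%, 12.7% and 8.2% lower, so the counts of higher granule genes lie near these shares. The list medians were 0.24, -0.16 and 0.31 on the log2 scale, beside 0.12, 0.02 and 0.14 over all genes. Ctsc stood at 1608 CPM in NK cells of the heart-labelled TIL against 271 in heart blood, below the 2598 CPM of the other cells of that graft library.

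Stretches before the start sites of the genes of the activating receptor NKp46, of granzymes A and B and of the chemokine Ccl3 are shown because these genes carry the identity of the cells and the graft difference. They are RefSeq windows of 250 bases on GRCm38.p6, read in the direction of the gene, with capitals at matches on either strand to a Runx motif (TGTGGT), a T-box motif (AGGTGT) or an AP-1 motif (TGANTCA). No match in the printed windows overlaps another.
Ncr1: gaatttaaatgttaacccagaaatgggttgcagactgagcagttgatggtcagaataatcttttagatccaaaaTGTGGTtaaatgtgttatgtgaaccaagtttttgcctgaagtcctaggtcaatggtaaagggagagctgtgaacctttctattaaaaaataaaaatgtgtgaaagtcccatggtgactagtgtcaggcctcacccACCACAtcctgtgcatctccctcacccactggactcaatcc
Gzma: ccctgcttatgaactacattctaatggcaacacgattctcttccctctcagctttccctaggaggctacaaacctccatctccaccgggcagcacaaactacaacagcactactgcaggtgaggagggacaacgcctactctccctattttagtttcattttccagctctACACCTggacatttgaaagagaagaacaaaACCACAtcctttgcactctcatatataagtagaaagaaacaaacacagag
Gzmb: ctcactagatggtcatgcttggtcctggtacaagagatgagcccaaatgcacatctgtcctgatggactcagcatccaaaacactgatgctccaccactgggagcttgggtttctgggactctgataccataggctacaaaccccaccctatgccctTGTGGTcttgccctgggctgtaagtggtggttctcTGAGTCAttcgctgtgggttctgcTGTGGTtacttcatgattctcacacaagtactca
Ccl3: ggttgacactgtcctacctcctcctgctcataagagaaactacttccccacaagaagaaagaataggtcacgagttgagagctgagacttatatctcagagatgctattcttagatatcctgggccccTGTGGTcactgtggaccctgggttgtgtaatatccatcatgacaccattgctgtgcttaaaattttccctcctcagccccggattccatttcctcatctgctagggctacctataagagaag
The windows lie at chr7:4337465-4337714 on the plus strand and at chr13:113100982-113101231, chr14:56262335-56262584 and chr11:83649379-83649628 on the minus strand. Ncr1 and Gzmb held 2 Runx matches each, Gzma 1 Runx and 1 T-box match, Gzmb 1 AP-1 match, and Ccl3 1 Runx match. Of 14 NK genes looked up 13 had a window, and 9 of these held a Runx match, among them Prf1, Nkg7, Xcl1, Klrb1c and Klre1. A gene was counted if any of its windows held a match, and 1 of the 2 windows of Klre1 held none. The windows of Klra4, Klra7, Klra8 and Ctsc held none. Among all 32851 windows, each counted by itself, 14% held the Runx letters, 11.8% the T-box letters and 6.75% the AP-1 letters. A match is a run of letters and no measure of binding.

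The chemokine genes Ccl3 and Ccl4 were higher in graft than in blood NK cells, and the other cells differed in the same way. Ccl3, which encodes an inflammatory chemokine, stood at 30.1, 128 and 175 CPM in heart, liver and kidney blood NK cells and at 742, 834 and 584 CPM in the heart-labelled TIL, the liver-labelled TIL and liver PC. Ccl4, its close relative, stood at 105, 245 and 475 CPM in blood and at 1319, 1697 and 1014 CPM in grafts. No blood value reached a graft value for either gene, as for 7.84% of all genes with at least 100 UMIs over the NK cells. In the 3 graft libraries 3 cells each gave 8 of 18, 22 of 28 and 25 of 72 Ccl3 UMIs. For Ccl4 3 cells each gave 23 of 32, 45 of 57 and 63 of 125 UMIs. The log2 ratios were 4.34 (2.56 to 7.78), 2.68 (1.71 to 3.78) and 2.15 (1.33 to 3.17) for Ccl3 and 3.57 (2.44 to 5.07), 2.78 (2.09 to 3.53) and 2.03 (1.42 to 2.73) for Ccl4. The other cells of the 3 graft libraries carried Ccl3 at 698, 533 and 809 CPM and Ccl4 at 1436, 1377 and 1031 CPM, about as high as the NK cells. At 500 UMIs per cell, Ccl4 was found in 30%, 31.3% and 28.2% of graft NK cells against 39.8%, 49.5% and 31.5% of cells with neutrophil genes. Whether the latter cells express Ccl4 was not tested, so its share alone does not show whether graft NK cells express it. In blood the same shares were 6.15%, 8.26% and 14.9% of NK cells against 1.51%, 0.916% and 4.15%. Unthinned, the NK shares were 36.7%, 37.5% and 43.6% in the grafts and 10.8%, 11.6% and 20.9% in blood.

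Xcl1 was also higher in graft NK cells, and Ccl5 was not. Xcl1, which encodes lymphotactin, a chemokine that attracts cross-presenting dendritic cells, stood at 241, 196 and 168 CPM in blood NK cells and at 329.8 in the heart-labelled TIL, 536 in the liver-labelled TIL and 616 in liver PC. The graft range lay above the blood range, as for 7.84% of all genes with at least 100 UMIs over the NK cells. In heart blood, however, 11 of the 16 UMIs came from 1 cell, and the heart log2 ratio was 0.50 (-0.98 to 1.76). It was 1.45 (0.45 to 2.44) and 1.63 (0.93 to 2.44) in the liver libraries. With the TIL labels exchanged it was 1.15 in heart and 0.80 in liver. With the share of the other cells subtracted it was 0.05 in the heart-labelled TIL, 0.80 in the liver-labelled TIL and 1.12 in liver PC. With NK cells of no Cd3 or Cd8 UMI alone it was 0.42 in liver PC. A single cell gave 28 of the 76 Xcl1 UMIs of liver PC, and without it the level was 398 CPM. In liver PC 16.7% of NK cells (32.1% unthinned) had an Xcl1 UMI at 500 UMIs per cell against 3.43% of cells with neutrophil genes. In the heart-labelled TIL these shares were 13.3% (23.3% unthinned) against 4.21%, and in the liver-labelled TIL 12.5% (37.5% unthinned) against 9.01%. The other cells carried Xcl1 at 5.65, 8.67 and 46.1 CPM in blood and at 208, 409 and 206 CPM in the grafts, a wider difference than in the NK cells. Ccl5, the most abundant chemokine gene of the cells, stood at 14753, 21224 and 19632 CPM in blood and at 16777, 10094 and 15339 CPM in grafts. It was lower past 2-fold in the liver-labelled TIL alone, with a log2 ratio of -1.07 (-1.24 to -0.91) that was -0.34 with the TIL labels exchanged. In the other cells Ccl5 stood at 2126 to 5694 CPM in blood and 4421 to 9179 CPM in the grafts. Of 14 listed cytokine and chemokine genes 5 were measured in each comparison, and 2, 3 and 3 of them were higher, beside 12%, 12.1% and 10.4% of all genes. Ifng, which encodes interferon gamma, had 0 to 14 UMIs per library and was too low to compare.

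**Figure D3:**
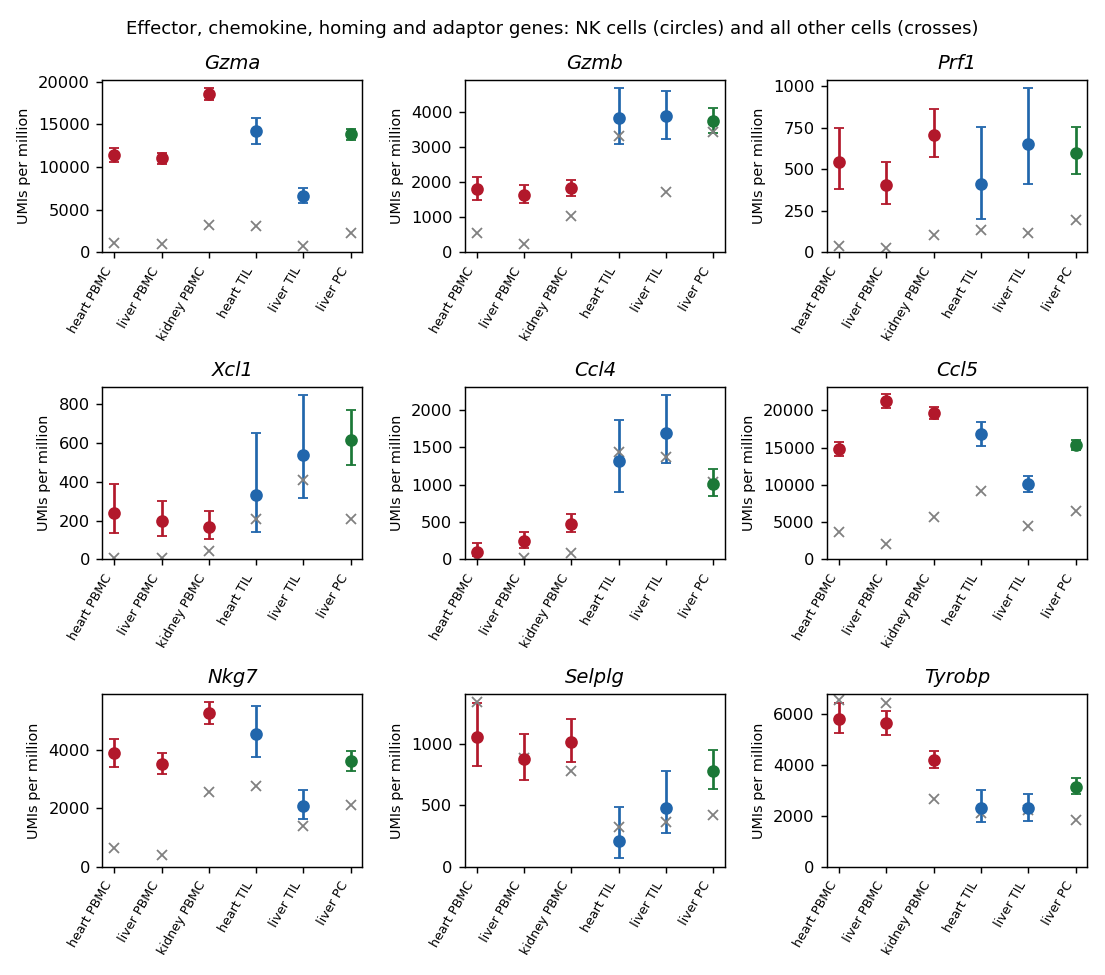
CPM of 9 genes in summed NK cells (circles, with exact 95% Poisson intervals) and in all other passing cells (crosses) for 3 blood libraries (red), 2 TIL libraries under their labels (blue) and liver PC (green). The graft circles of Gzmb, Xcl1 and Ccl4 lie above those of blood, while the crosses of these 3 genes are also higher in grafts; Gzma, Prf1 and Ccl5 overlap.

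Among receptor genes, those of Cd94 and NKG2D were within 2-fold of their blood levels, and single genes differed. Of 20 listed NKG2 and other receptors, 6, 7 and 9 were measured in the heart-labelled TIL, the liver-labelled TIL and liver PC. Of these 0, 1 and 1 were higher and 1, 0 and 1 lower than in blood, while 24.5%, 24.8% and 18.6% of all genes were past 2-fold in either direction. Klrd1, the shared subunit of the Cd94-NKG2 receptors, stood at 1203, 1354 and 1285 CPM in blood and at 1030.5, 744 and 1663 CPM in grafts, and Klrk1 at 797, 628 and 745 CPM against 989, 655 and 738 CPM. Both overlapped between blood and grafts, and both were higher than in the other cells, at 111 to 429 CPM for Klrd1 and 46.4 to 222 CPM for Klrk1. Klrc1, which encodes the inhibitory subunit NKG2A, was higher in liver PC than in liver blood, at 397.5 against 128 CPM and a log2 ratio of 1.60 (0.74 to 2.65), with the other cells at 273 and 23.6 CPM. It was not higher in the heart-labelled TIL, at 165 against 271 CPM. Klrg1, a receptor of mature NK cells, stood at 286, 314 and 577 CPM in blood and at 82.4, 298 and 292 CPM in grafts. Its value in the heart-labelled TIL rests on 2 UMIs, with a log2 ratio of -1.51 (-4.94 to 0.26) that turned to 0.09 with the labels exchanged.

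Tyrobp, which encodes the adaptor DAP12 through which Ly49D and Ly49H signal, was lower in graft NK cells. It stood at 5805, 5623 and 4192 CPM in blood and at 2308, 2293 and 3139 CPM in the 3 grafts. No graft value reached a blood value, as for 6.35% of all genes with at least 100 UMIs over the NK cells. The log2 ratios of Tyrobp were -1.32 (-1.76 to -0.92), -1.29 (-1.66 to -0.95) and -0.84 (-1.03 to -0.65). The other cells carried it at 6529, 6424 and 2665 CPM in blood and at 2100, 2233 and 1838 CPM in grafts. After the subtraction of their share the ratios were -1.10, -1.08 and -0.38. The adaptor Fcer1g, through which NKp46 signals, overlapped at 3429, 4474 and 2717 CPM against 3998, 3097 and 2847 CPM. Of 17 listed adaptor and signalling genes, 9, 11 and 12 were measured, with 0, 1 and 0 higher and 2, 1 and 0 lower, near the shares of 12%, 12.1% and 10.4% higher and 12.5%, 12.7% and 8.2% lower over all genes.

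Selplg, which encodes the ligand of P-selectin, stood at 1053, 873 and 1015 CPM in blood and at 206, 476 and 779 CPM in grafts. Its graft values lay below every blood value, as did those of 6.35% of all genes with at least 100 UMIs over the NK cells. Its log2 ratios were -2.23 (-4.02 to -1.06), -0.84 (-1.74 to -0.10) and -0.17 (-0.60 to 0.27), and the last turned to 0.12 with the share of the other cells subtracted. The other cells were also lower in grafts, at 325, 366 and 424 CPM against 1337, 879 and 775 in blood. With the TIL labels exchanged the log2 ratio of Selplg in NK cells was -1.11 for heart and -1.95 for liver. Of 26 listed homing and retention genes 5, 9 and 15 were measured, with 0, 0 and 2 higher and 2, 4 and 4 lower, beside 12.5%, 12.7% and 8.2% of all genes lower, and with medians of -0.87, -0.84 and -0.40. With an interval that left out equal levels, 2, 2 and 4 were lower. Klf2 and Rgs1 were singled out after their values were seen. Klf2, a transcription factor that keeps lymphocytes in circulation, was at 75.2 CPM in heart blood (5 UMIs) and 87.6 in kidney blood. In the heart-labelled TIL it was at 124 CPM (3 UMIs), not below heart blood and with too few UMIs to compare. It was at 294 CPM in liver blood, 29.8 in the liver-labelled TIL (1 UMI) and 64.9 in liver PC, with the other cells at 389, 37.7 and 52.1 CPM. Rgs1, a brake on chemokine receptor signals, was at 29.4, 149 and 251 CPM in the same libraries and at 256 CPM in kidney blood, and liver PC was 2.90 higher than liver blood on the log2 scale (1.41 to 5.45), with the other cells at 4.15, 214 and 215 CPM in the 3 liver libraries. Liver PC was also lower in Itgam, the Cd11b gene of mature NK cells, at 32.4 (4 UMIs) against 157 CPM, with the other cells at 111 and 154 CPM. The liver-labelled TIL was at 29.8 CPM (1 UMI). In heart Itgam went the other way on few UMIs, at 165 CPM in the heart-labelled TIL (4 UMIs) against 90.2 in blood (6 UMIs).

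**Figure D4:**
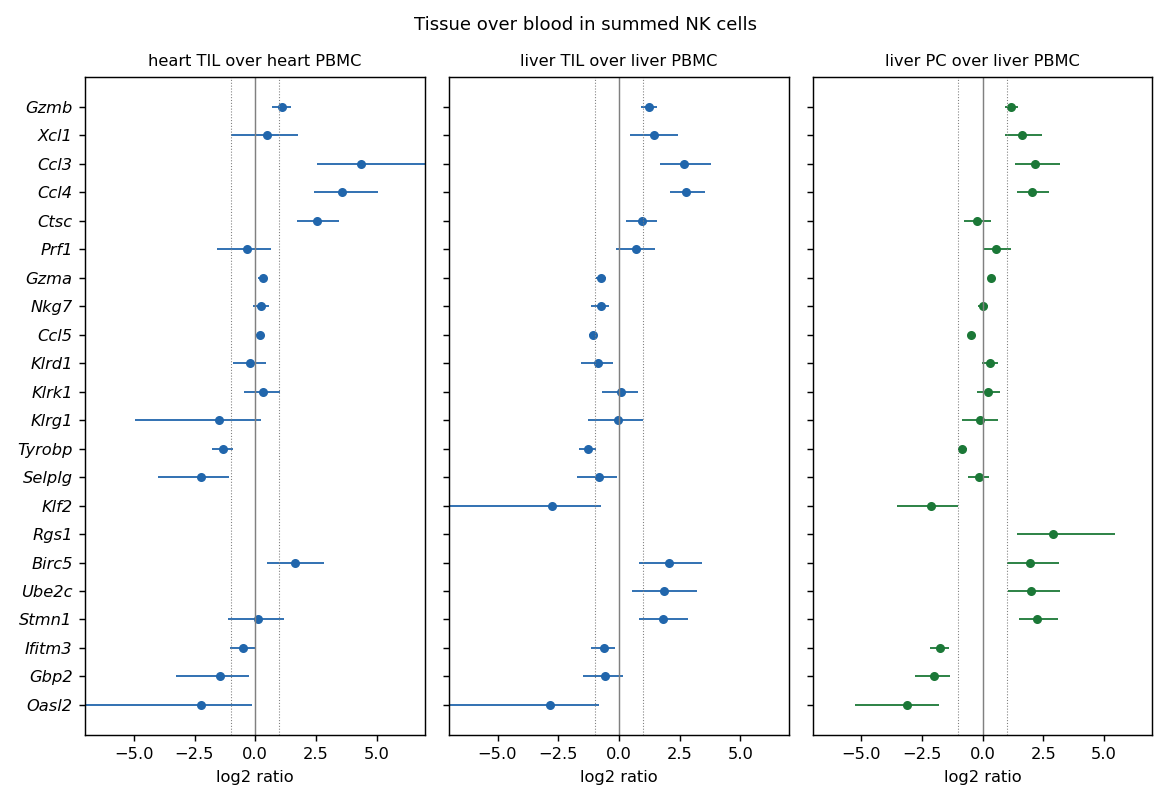
Log2 ratio of graft over blood for 22 genes in summed NK cells of the heart-labelled TIL, the liver-labelled TIL and liver PC, with exact 95% intervals drawn to at most 7; dotted lines mark 2-fold, and a gene with fewer than 20 UMIs over both libraries has no point. Gzmb, Ccl3 and Ccl4 lie to the right in all 3 panels and the interferon gene Oasl2 to the left, while Gzma and Klrk1 lie within 2-fold.

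Proliferation genes were high in NK cells of kidney blood and of liver PC. The 30 listed cell cycle genes summed to 4782, 3503 and 10722 CPM in NK cells of heart, liver and kidney blood. They summed to 7997, 6730 and 9280 CPM in the heart-labelled TIL, the liver-labelled TIL and liver PC. Kidney blood thus lay above every graft library. The other cells summed to 1876, 1707 and 8882 CPM in blood and to 6446, 4694 and 7144 CPM in grafts, below the NK cells of their own library in all 6. Of the listed genes 8, 10 and 21 were measured in the 3 comparisons, and 3, 5 and 15 were higher and none lower. Over all genes 12%, 12.1% and 10.4% were higher and 12.5%, 12.7% and 8.2% lower. The list medians were 0.47, 0.94 and 1.61 beside 0.12, 0.02 and 0.14 over all genes. Birc5, which encodes survivin, a subunit of the chromosomal passenger complex, stood at 196, 98.1 and 526 CPM in blood and 618, 417 and 397.5 CPM in grafts. Its log2 ratios were 1.65 (0.49 to 2.85), 2.07 (0.81 to 3.42) and 1.96 (1.02 to 3.17). In the other cells it stood at 67.1, 41.1 and 550.0 CPM in blood, in kidney above the NK cells, and at 414, 268 and 351 CPM in grafts. Stmn1, which encodes a regulator of microtubules, stood at 391, 167 and 767 CPM in blood and 412, 596 and 803 CPM in grafts, with the other cells at 90.6, 62.2 and 639 CPM and at 403, 276 and 345 CPM. In kidney blood Ube2c, which encodes the E2 enzyme of the anaphase-promoting complex, was 2.53 above liver blood on the log2 scale (1.64 to 3.71) and 3.50 above heart blood (2.11 to 6.02). The other cells carried Ube2c at 538 CPM in kidney blood against 28.6 in liver and 24.3 in heart blood, a wider difference than in the NK cells.

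The cell cycle UMIs came from a part of the NK cells. Thinned to 500 UMIs, 16.9% of heart blood NK cells (8.76 to 28.3%), 5.79% of liver blood (2.36 to 11.6%) and 45.3% of kidney blood NK cells (37.1 to 53.7%) had at least 5 of them. The shares were 30% in the heart-labelled TIL (14.7 to 49.4%), 21.9% in the liver-labelled TIL (9.28 to 40%) and 41.0% in liver PC (30 to 52.7%). Unthinned they were 32.3%, 15.7% and 58.1% in blood and 33.3%, 43.8% and 66.7% in the grafts. The share of other cells past this limit was 1.48%, 1.40% and 30.7% in the 3 blood libraries and 22.7%, 12.6% and 25.8% in the 3 grafts. The score has no gap at 5 UMIs, since 8, 6 and 24 NK cells in blood and 3, 1 and 13 in grafts had 4 or 5. Within each library the cells at or over the limit carried less Ccl5 than those under it, at 7169 against 16691 CPM in heart blood, 10979.6 against 21981.5 in liver blood, 12585 against 26653 in kidney blood, 13246 against 18490.2 in the heart-labelled TIL, 5137 against 11448 in the liver-labelled TIL and 9565 against 20490.5 in liver PC. Gzma did not part in 1 direction. It was higher in the cells over the limit in 5 libraries, from 11603 against 11310.0 CPM in heart blood to 20184 against 11266 CPM in the heart-labelled TIL, and lower in the liver-labelled TIL at 3471 against 7468 CPM.

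**Figure D5:**
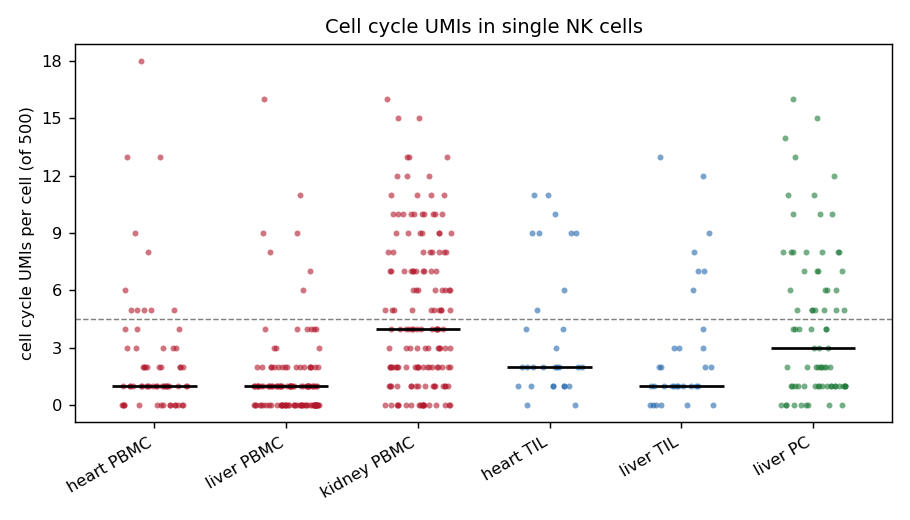
UMIs of 30 cell cycle genes in each NK cell after thinning to 500 UMIs, 1 point per cell with a sideways spread for display, in 3 blood and 3 graft libraries; black bars are medians and the dashed line lies just under 5 UMIs. Kidney blood has the highest median, 4 UMIs, followed by liver PC with 3.

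Interferon-stimulated genes that differed were lower in graft than in blood NK cells, with 1 exception. Of 28 listed genes 18, 20 and 21 were measured in the 3 comparisons, with 0, 1 and 0 higher and 6, 4 and 9 lower, beside 12.5%, 12.7% and 8.2% of all genes lower, and with medians of -0.44, -0.31 and -0.84. With an interval that left out equal levels 6, 3 and 9 were lower. None of these reached the level of the other cells in blood NK cells. The exception was Igtp in the liver-labelled TIL, a gene named after its values were seen, which was lower past 2-fold in both other comparisons and turned to 0.76 in heart with the TIL labels exchanged. The list summed to 31552, 30330 and 25358 CPM in blood NK cells and to 26834, 28020 and 26201 CPM in graft NK cells. Kidney blood thus lay below every graft library. In the other cells the list summed to 46109.5, 43075.5 and 29823 CPM in blood and to 27942, 31510 and 28618 CPM in grafts. Ifitm3, an entry restriction factor, stood at 2331, 2021 and 818 CPM in blood and 1649, 1310 and 592 CPM in grafts, with the other cells at 5354, 5427 and 2251 CPM and at 2576, 2526 and 2048 CPM. Gbp2, a guanylate-binding protein gene induced by interferon gamma, stood at 617, 726 and 431 CPM in blood and 206, 476 and 178 CPM in grafts. Oasl2 stood at 286, 314 and 94.9 CPM in blood and 41.2, 29.8 and 32.4 CPM in grafts, where it rests on 1, 1 and 4 UMIs. Ifitm3, Gbp2 and Oasl2 were higher in the other cells than in the NK cells of every library. The other cells carried Gbp2 at 1475, 2131 and 817 CPM in blood and at 372, 851 and 452 CPM in grafts. They carried Oasl2 at 542, 620 and 166 CPM in blood and at 57.6, 112 and 70.6 CPM in grafts. With the share of the other cells subtracted, Ifitm3, Gbp2 and Oasl2 each fell under 20 UMIs over both libraries in every comparison and gave no ratio. Their lower values in grafts can therefore not be assigned to the NK cells themselves.

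Metabolic and motility genes are given by their counts, several of which lie near the share over all genes. Of 16 glycolysis and oxygen genes 7, 6 and 7 were measured, with 1, 2 and 2 higher and none lower, and medians of 0.51, 0.91 and 0.96, beside 12%, 12.1% and 10.4% of all genes higher. Ldha, which encodes lactate dehydrogenase A, stood at 782, 618 and 825 CPM in blood NK cells and at 1237, 1668 and 1209 CPM in grafts, below the 1639, 1898 and 1699 CPM of the other cells there. With the share of the other cells subtracted its heart log2 ratio turned from 0.67 to -0.14. Of 20 nuclear genes of oxidative phosphorylation 3 of 18 were higher in the heart-labelled TIL and none of 19 in either liver comparison. Of 25 actin and motility genes none was higher and 6 of 23, 4 of 25 and 4 of 25 were lower, beside 12.5%, 12.7% and 8.2% of all genes.

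Across both TIL comparisons, 26 of 704 genes measured in each were higher in both (3.69%) and 36 lower in both (5.11%). Of these, 8 higher and 5 lower genes had an NK level at least that of the other cells in the higher library. The higher ones were Gzmb, Ccl3, Birc5, the small nucleolar RNA gene Snord13, the H/ACA ribonucleoprotein gene Nhp2, Cmtm7, Krtcap2 and Ssr4. Snord13 stood at 948 against 30.1 CPM in heart and 476 against 68.7 CPM in liver, with the other cells at 210 and 5.50 CPM and at 169 and 13.9 CPM. Krtcap2, a subunit gene of the oligosaccharyltransferase complex, stood at 866 against 301 and at 744 against 353 CPM. With the TIL labels exchanged, Nhp2 and Cmtm7 in heart and Ssr4 in liver were under 2-fold. The lower ones were Klra13-ps, the mitochondrial import genes Tomm22 and Tomm5, the annexin gene Anxa6 and Gm9843. Klra13-ps, a Ly49 pseudogene, stood at 165 against 466 CPM in heart and 268 against 746 CPM in liver, where the other cells were under 20 CPM in each library. Its log2 ratios were -1.35 (-3.46 to 0.00) and -1.41 (-2.66 to -0.48), and liver PC was within 2-fold at 665 CPM. With the TIL labels exchanged its heart ratio was -0.74.

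Among genes whose NK level in the higher library reached that of the other cells, the largest ratios of liver PC over liver blood were those of Cxcl2, the small RNA genes Gm24265 and Snord118, Cdca3 and Gadd45g. Cxcl2, a chemokine that draws neutrophils, had 83 UMIs in liver PC and 0 in liver blood, where 3 UMIs would be 29.4 CPM, so that its 673 CPM were at least 22.9-fold higher. A single cell gave 27 of these UMIs and 3 cells gave 62, and the other cells of liver PC carried it at 600 CPM. Gadd45g, a stress-inducible regulator of cell growth, stood at 187 against 19.6 CPM in NK cells and at 53.4 against 52.4 CPM in the other cells. The lowest ratios under the same condition were those of AI467606, the splicing kinase gene Clk1, Itgam, the kinase gene Ptk2b and Mxd4. Mxd4, a repressor of the Max network, was at 48.7 against 177 CPM, with the other cells at 19.1 and 42.0 CPM.

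A few NK cells of the liver-labelled TIL carried antibody transcripts. Of 815 Igha UMIs in its 32 NK cells, 652 came from 3 cells, and 3 of the 32 cells had at least 10% of their UMIs from Igkc, Igha and Jchain. Plasma cell genes summed to 43236 CPM in these NK cells against 28904 in the other cells of the library. Without the 3 cells no count of genes above moved by more than 1.5 times.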

How the data were processed

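The authors deposited raw counts: UMIs per gene and barcode for 8 Microwell-seq libraries, made with STAR and Drop-seq tools on GRCm38 after removal of reads aligned to several places and merging of UMIs 1 base apart. Each deposited matrix held 10000 barcodes, all of which passed the cell filter in liver PC. Barcodes under 500 UMIs or over 10% mitochondrial transcripts were dropped, and NK cells were chosen by the stated receptor and lineage genes. The members and the gene lists were chosen with earlier results of these data known. UMIs of NK cells were summed per library and scaled to 1000000. Log2 ratios had 0.5 UMI added, over genes with at least 20 UMIs in both libraries together. With 1 library per condition no test was made, and a gene was counted from a 2-fold ratio on. Libraries needed 20 NK cells, so the planned comparison of kidney TIL with kidney blood was not made, and the genes shared by the TIL comparisons come from heart and liver. Cells were thinned to 500 UMIs (seed 0) for shares of cells with a UMI. No doublets were removed.

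Genes were open to naming if they were markers of the cells, list members with at least 100 UMIs over all NK cells or past 2-fold the same way in both TIL comparisons, the leading genes of both TIL comparisons (up to 10 each way), or the leading 5 each way of liver PC, the last 2 kinds with an NK level at least that of the other cells in the higher library. Other genes are said to be named after their values were seen. Free transcripts were estimated from those of 8 macrophage and neutrophil genes with at least 50 CPM in the other cells (5 or 6 genes in blood), an alternative added after seeing the data, as were no lineage limits, all barcodes and the removal of cells with antibody transcripts. Other alternatives were a receptor minimum of 2 UMIs, Ncr1 and Klrb1c alone, no Cd3 or Cd8 UMI, a floor of 1000 UMIs, exchanged TIL labels, barcodes found in another library left out, the 5% deepest cells left out, thinning, no UMI minimum, centring on the median and the mean over cells. Intervals are exact binomial or Poisson at 95%. Summing and ratios were tested on simulated data. Gene positions are from GENCODE on GRCm38, and windows before start sites from RefSeq on GRCm38.p6. Python 3.11.15, numpy 2.4.6, scipy 1.17.1, pandas 2.3.3 and matplotlib 3.10.9 were used. The release of the authors' GENCODE annotation is not given in the sources used here. Some genes of the homing list are not reported here by name.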

Additional observations from a re-analysis of the deposited data

How the results depend on the processing

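The log2 ratio of the NK share in graft over blood was below 0 in every setting but 1. For heart (-1.43 as reported) it was -0.78 with 2 receptor UMIs, -2.68 with a floor of 1000 UMIs, -0.093 without lineage limits and 0.05 over all UMIs of all barcodes. For the liver-labelled TIL (-2.37) it was -4.34 with Ncr1 and Klrb1c alone, -3.11 with no Cd3 or Cd8 UMI and -1.45 over all barcodes. For liver PC it was -2.04 with no Cd3 or Cd8 UMI, -1.76 with the floor of 1000 UMIs and -0.014 without lineage limits, and for kidney TIL it was -3.95 over all barcodes. The cause was not tested.

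Counts of higher and lower genes moved by more than 1.5 times as follows. With 2 receptor UMIs there were 176 higher genes in the heart-labelled TIL, and 60 higher and 60 lower in both TIL. In liver PC there were 81 higher and 93 lower with Ncr1 and Klrb1c alone, and 107 higher with no Cd3 or Cd8 UMI. Thinned cells, with fewer genes measured, gave 43 higher and 34 lower (heart-labelled TIL), 41 and 56 (liver-labelled TIL), 44 and 44 (liver PC) and 12 and 16 (both TIL). With no UMI minimum these were 2281 and 896, 2400 and 1242, 2903 and 2483, and 614 and 228. With free transcripts subtracted there were 26 higher and 51 lower in the heart-labelled TIL, 58 higher in the liver-labelled TIL, 67 lower in liver PC, and 3 higher and 17 lower in both TIL. In the same order 19 and 22, 45, 18, and 2 and 4 of these were among the genes counted as reported. Fewer genes were measured there, 418, 574, 1100 and 386. Of the genes past 2-fold as reported, Klrg1 (0.092) and Igtp (0.76) in heart and Klra1 (0.10) in liver (Klra1 is named after its values were seen) turned with the labels exchanged, as did, under 2-fold, Gzma and Nkg7 in both TIL and Prf1, Ccl5, Fcer1g and Klrk1 in heart, and S100a11 turned with free transcripts subtracted (2.22 in the heart-labelled TIL, 0.28 in liver PC), as did, under 2-fold, Nkg7, Ccl5, Stmn1, Tuba1b, Ldha and Hspa5 in heart, Klrk1, Klra3 and Tuba1b in the liver-labelled TIL, and Gzma, Nkg7, Selplg, Klrd1, Klrk1, Klra3, Cox7a2 and Hspa5 in liver PC. The TIL comparisons could not be made with Ncr1 and Klrb1c alone, with no Cd3 or Cd8 UMI or with the floor of 1000 UMIs, for want of 20 NK cells. No paired analysis was possible because each condition had 1 library. The 30 and 32 NK cells of the TIL libraries limit what these comparisons can show, and a gene with few UMIs there has a wide interval.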
